A study of Mus musculus with 6 samples.

Results

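The genes described here make the extracellular matrix and bind cells to it. The members are 33 genes named by function: 10 of the basement membrane, 14 of the interstitial matrix (Sparc among them), 6 integrin subunits and 3 genes of matrix remodelling. A gene's members on the array were the probe sets annotated with its symbol alone, and each gene was read from the probe set with the highest mean log2 signal over all arrays. This gave 32 genes of the 18193 measured. Fbn1, which encodes a microfibril protein, has no probe set listed under its symbol in the annotation used and was not analysed here.

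A basement membrane is a thin sheet under epithelia, built of a laminin network and a type IV collagen network that nidogens and perlecan join. Interstitial matrix lies between mesenchymal cells and holds fibronectin, fibrillar collagens, microfibrils and hyaluronan with its proteoglycans. Integrins are pairs of an alpha and a beta subunit that attach cells to these ligands. During gastrulation cells leave the primitive streak through a gap in the basement membrane and migrate over fibronectin, and fibronectin and its integrin receptor are needed for mesoderm to form somites.

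RNA was taken from the dissected node and primitive streak of mouse embryos at E7.75 to E8, with 0 to 2 somites, on a mixed C57BL/6 and 129/Sv background. Wnt3a null embryos, which lack this secreted signal of the streak, were compared with Wnt3a wild type embryos. Each genotype had 3 arrays, and each array held amplified RNA of 3 embryos of that genotype and of like stage, so every value is that of a pool. The sources used here do not say how the null allele was made. Replicates are labelled as biological, so p-values measure the spread between these pools. In such tissue RNA, fewer cells of a type and less RNA per cell cannot be told apart.

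Wnt3a, the targeted gene, did not separate the genotypes in its single probe set. It read 961, 761 and 1009 in null pools 1 to 3 and 864, 1058 and 996 in wild-type pools 1 to 3, with a log2 difference of -0.10 (interval -0.58 to 0.38; limma, adjusted p = 1.00). Where that probe set lies relative to the altered part of the gene was not established here, so this signal does not check the genotype labels, and directions rest on the labels. Median signals per array ran from 73.7 to 86.4, in linear units, and arrays correlated over all genes at 0.925 to 0.939. Of 11 measured markers of the node and streak, 10 lay at or above the median gene signal of 164. The summed signal of the 11 was 18218 to 23059 over null pools and 23541 to 29631 over the others. Much of that sum was Nkx1-2, at 11376 to 16391 over null and 14974 to 17845 over wild-type pools, with its groups overlapping. By mean log2, 9 of the 11 were lower in null and 2 higher. Markers of visceral and yolk sac endoderm had summed signals from 36771 in wild-type pool 1 to 90544 in wild-type pool 2 (9 genes). Heart and lateral mesoderm markers summed to 4513 to 5195 over null and 2278 to 3946 over wild-type pools, neural plate markers to 5902 to 7685 and 3475 to 4231, and blood and endothelium markers to 1375 to 1743 and 762 to 1554. In these 3 lists, in that order, 3 of 9, 2 of 6 and 7 of 9 genes lay below the median gene signal. Mean log2 was higher in null for 7 of 9, 5 of 6 and 9 of 9. The part of these tissues in the results was not tested either. Wild-type pool 1 had an Eif2s3y signal, from the Y chromosome, of 4.31 against 1053 to 1788 elsewhere, so the arrays of replicate number 1 differ in this signal. Xist, from the X chromosome, read 7440 in wild-type pool 1, 5047 in null pool 1 and 1871 to 2707 elsewhere. The part of embryo sex in the results was not tested.

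Null pool 1 stood apart from the other 5 arrays, and matrix genes were among those that set it apart. Collagen III, Col3a1, had a signal of 1937 there and 94.4 to 179 elsewhere, 10.9-fold above the next highest array. A list of 14 genes known from maternal decidua, the uterine tissue around the implanted embryo, was drawn up after this was seen. Their summed signal was 46464 in null pool 1 and 4351 to 9649 on the other arrays. Of the 14, 11 were highest in null pool 1, against 18.9% of all genes. There 7 were over 4-fold above every other array, and 110 of all 18193 genes were at least 4-fold above. The 7 included Dcn at 2484 against 46.6 to 143, Tdo2 at 5536 against 207 to 436 and Des at 1215 against 28.8 to 90.3. The remaining 3, Prl8a2, Prl3c1 and Cryab, were not highest there, and Prl8a2 stood at 905 to 4049 on the other 5 arrays, so no array was free of this list's signal. Parietal endoderm, which lines the outer yolk sac and secretes much basement membrane, had 5 measured markers with a summed signal of 8746 in null pool 1 and 1735 to 1962 elsewhere. That excess came from Srgn (6638 against 234 to 372) and Thbd (503 against 44.5 to 125), while Pth1r, Plat and Sox7 were within 1.05-fold of, or below, the next highest array. The part of these tissues in the matrix results was not tested, and the differences and medians below are given with and without null pool 1.

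**Figure D1:**
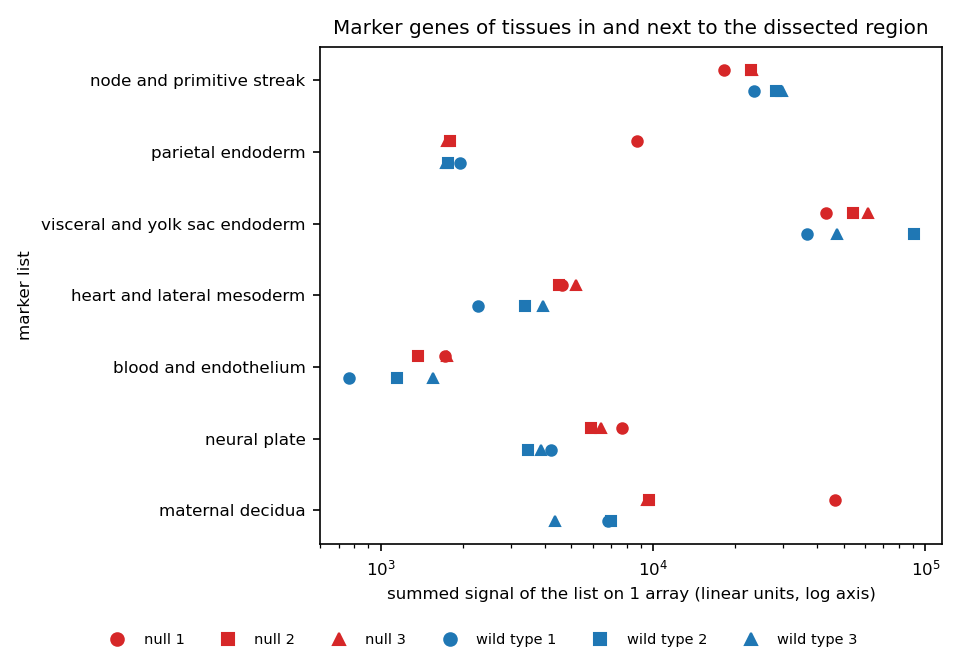
Summed linear signal of each marker list on each array, on a log axis, with null pools in red and wild-type pools in blue and the marker shape giving the replicate number. Null pool 1 lies apart for maternal decidua (46464) and parietal endoderm (8746), and wild-type pool 2 is highest for visceral and yolk sac endoderm (90544).

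The genes of the type IV collagen chains Col4a1 and Col4a2, which are assembled into one molecule, lie head to head, and their promoter windows are shown because the pair was measured together below. RefSeq's windows, from 250 bases before to 50 bases after each annotated start (GRCm38.p6), overlap by 78 bases, in capitals here, which read as reverse complements of each other. Col4a1 is at chr8:11312777-11313076 on the minus strand and Col4a2 at chr8:11312555-11312854 on the plus strand, both 5′ to 3′.
Col4a1: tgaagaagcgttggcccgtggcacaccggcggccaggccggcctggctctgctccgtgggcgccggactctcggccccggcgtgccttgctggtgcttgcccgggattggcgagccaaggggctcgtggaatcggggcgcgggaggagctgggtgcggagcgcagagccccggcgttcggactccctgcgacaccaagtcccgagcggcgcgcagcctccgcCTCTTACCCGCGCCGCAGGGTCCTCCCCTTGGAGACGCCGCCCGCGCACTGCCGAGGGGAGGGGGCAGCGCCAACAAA
Col4a2: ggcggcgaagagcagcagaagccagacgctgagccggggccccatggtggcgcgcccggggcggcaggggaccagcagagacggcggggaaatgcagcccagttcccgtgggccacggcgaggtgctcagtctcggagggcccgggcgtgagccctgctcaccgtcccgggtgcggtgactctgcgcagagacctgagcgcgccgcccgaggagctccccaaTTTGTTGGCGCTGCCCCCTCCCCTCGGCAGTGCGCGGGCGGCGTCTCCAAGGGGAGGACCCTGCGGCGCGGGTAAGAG
The annotated starts are 21 bases apart. The windows hold 74.0% and 73.7% G or C, against a median of 52.7% over 32851 windows of all genes. The letters CTTTGAT, on either strand as ATCAAAG, the core to which the TCF and LEF factors of Wnt signalling bind, were in none of the 28 windows listed for 23 of the 33 members, and in 3.73% of all windows. That says only that these letters are not in these windows.

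No matrix or integrin gene passed the test between genotypes. Limma called 0 of 32 members after adjustment over all genes, as it did for 0 of 18193 genes (0%). At an unadjusted p under 0.05 it passed 1 member, Nid1, while 5.17% of all genes passed. With the replicate number as a block the counts were 0 after adjustment (0%) and 1 without it (6.30% of all genes). With trend and robust options added, 0 members passed after adjustment (0.0605% of genes did), and 5 passed unadjusted (8.79% of genes). Those 5 were Nid1 and Col5a2 with higher means (4.85% of genes) and Fn1, Fbln1 and Vcan with lower means in null pools (3.94% of genes). Among genes at or above the median signal, where 28 of the 32 members lie, 11.9% passed unadjusted in that fit. Groups did not overlap for 3 of 32 members, which were Nid1, Fn1 and Fbln1. Over all genes 10.1% did not overlap (5.56% with null higher and 4.56% with null lower), so the 9.38% of members was near the background. All 3 pairs were higher in null for 4 members, Nid1, Sparc, Itgb1 and Timp2 (15.5% of all genes), and lower for 3, Fn1, Fbln1 and Col18a1 (14.7% of all genes).

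The split of mean signals around 0 depended on null pool 1. In all 20 of 32 members were higher on the log2 scale in null, with a median difference of 0.10, and over all genes 50.8% were higher with a median of 0.00. Without null pool 1, 14 of 32 were higher and the median was -0.02. That pool was picked out after its high signals were seen, so the lower values without it are no separate finding. Null pool 1 was the highest of the 6 arrays for 15 of 32 members, against 18.9% of all genes, and at least 2-fold above every other array for 3, Col3a1, Nid1 and Col5a2 (2.20% of genes). Sparc came just short of this, at 2.00-fold. Wild-type pool 1 was the lowest array for 9 of 32 members, against 20.3% of all genes, so replicate number 1 compared a high with a low array for several of them.

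**Figure D2:**
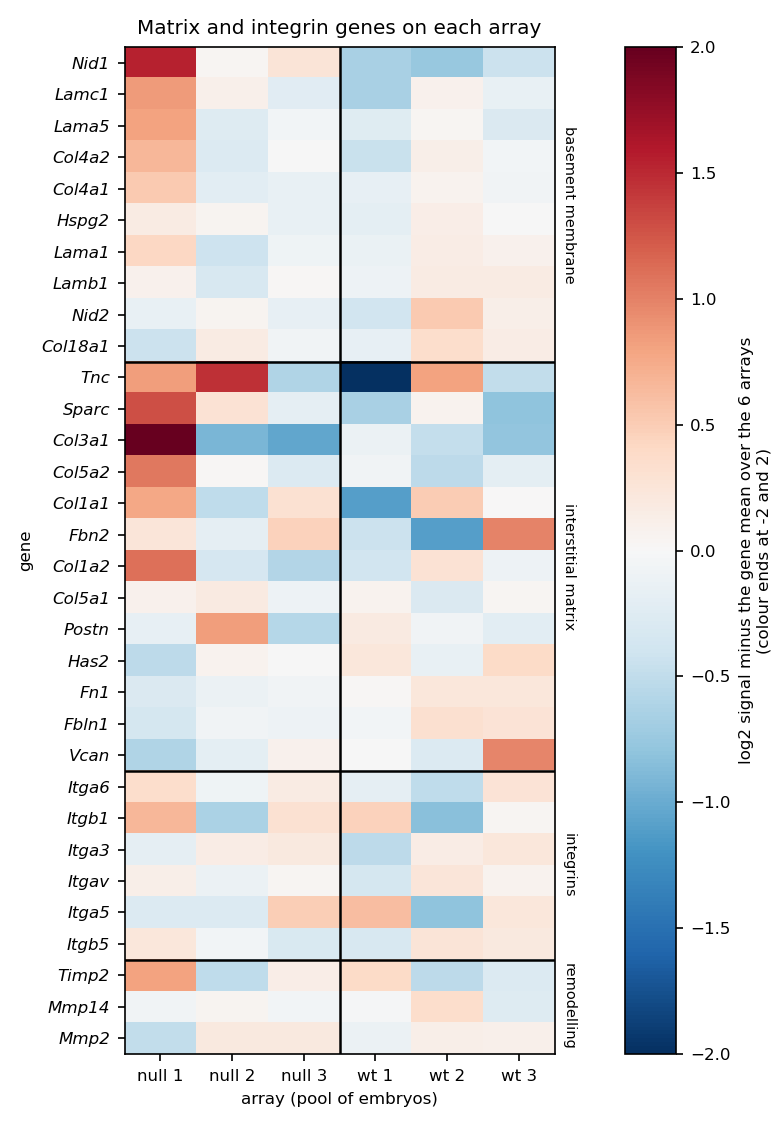
Log2 signal of 32 genes on the 6 arrays, each minus the gene's mean over the arrays (red above, blue below, colours ending at -2 and 2), by role and, within a role, by the difference between genotypes. The null 1 column is the darkest red in the upper rows of basement membrane and interstitial matrix, and Fn1 and Fbln1 are the rows with all null arrays below all wild-type arrays.

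Among basement membrane genes only Nid1 separated the genotypes. Nid1, nidogen 1, links laminin to type IV collagen. The null pools read 1439, 508 and 589, against 314, 291 and 365 for wild type. Every null pool was above every wild-type pool, with null pool 1 far above the rest. The log2 difference was 1.23 (SE 0.43, 95% interval 0.16 to 2.30; limma, adjusted p = 0.950), 2.35-fold, and it was 2.20, 0.80 and 0.69 by replicate number. Without null pool 1 it was 0.77 (interval 0.21 to 1.32; limma, adjusted p = 0.842), with the groups still apart. Its relative Nid2 had a log2 difference of -0.17 (interval -0.85 to 0.50), or -0.14 without null pool 1, and a wild-type pool 2 that was highest, at 1385 against 741 to 1039 elsewhere.

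The laminin chains differed in value among themselves, and all of their intervals included 0. Laminins are trimers of an alpha, a beta and a gamma chain, and Lama1 or Lama5, Lamb1 and Lamc1 make the main early embryonic forms. Lamc1, the common gamma chain, had signals of 736, 437 and 349 in null and 259, 432 and 369 in wild type, differing by 0.48 on the log2 scale (interval -0.41 to 1.37). Its groups overlapped, and the excess at this probe set lay in null pool 1: the difference without that pool was 0.18. A second bright Lamc1 probe set read 525, 313 and 188 against 188, 234 and 158, a difference of 0.72 with the groups overlapping. There null was higher in each pair, by 1.48, 0.42 and 0.25. Lama5 had 806, 386 and 442 against 391, 472 and 376, a log2 difference of 0.33 that was 0.01 without null pool 1. Lama1, the alpha chain of the earliest basement membranes, had 811, 456 and 571 against 554, 675 and 650, a log2 difference of -0.07 (interval -0.72 to 0.58). Null pool 1 was its highest array and null pool 2 its lowest, and without null pool 1 the difference was -0.29. Lamb1, the beta chain, was the least spread of these laminin chains, at 3852 to 5114 over null pools and 4481 to 5430 over the others, with -0.15 (interval -0.64 to 0.34), or -0.23 without null pool 1.

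At the probe sets used, type IV collagen chains, which form the second network, moved together across arrays. Col4a1 had signals of 8986, 5360 and 5583 in null and 5563, 6531 and 5932 in wild-type pools. Col4a2 had 1337, 698 and 835 in null and 622, 913 and 814 in wild-type pools. Null pool 1 was the highest array and wild-type pool 2 the next for both chains, and the groups overlapped. Log2 differences were 0.11 (interval -0.53 to 0.74) for Col4a1 and 0.25 (interval -0.52 to 1.02) for Col4a2, and -0.13 and -0.02 without null pool 1. By replicate number they were 0.69, -0.28 and -0.09 for Col4a1 and 1.10, -0.39 and 0.04 for Col4a2. The chains had like signs in pairs 1 and 2 and unlike signs in pair 3, where both values were close to 0.

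The other basement membrane genes showed no separation. Col18a1, a collagen that carries heparan sulfate, had 1693, 2561 and 2156 in null and 2029, 2894 and 2522 in wild-type pools, lower in each of the 3 pairs at -0.26, -0.18 and -0.23, though the groups overlapped (mean -0.22, interval -0.82 to 0.38). Null pool 1 was its lowest array, and without it the difference was -0.064. Hspg2, which encodes perlecan, had a narrow range of 520 to 668 over all arrays and a difference of 0.05 (interval -0.40 to 0.50), or -0.016 without null pool 1. The median over the 10 basement membrane genes was 0.08 by the means and 0.62, -0.29 and -0.11 by replicate number, with 9, 2 and 3 of 10 higher. Over all genes the medians by number were 0.04, -0.02 and -0.01. Without null pool 1 the basement membrane median was -0.04, and 3 of 10 genes were higher in place of 6.

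**Figure D3:**
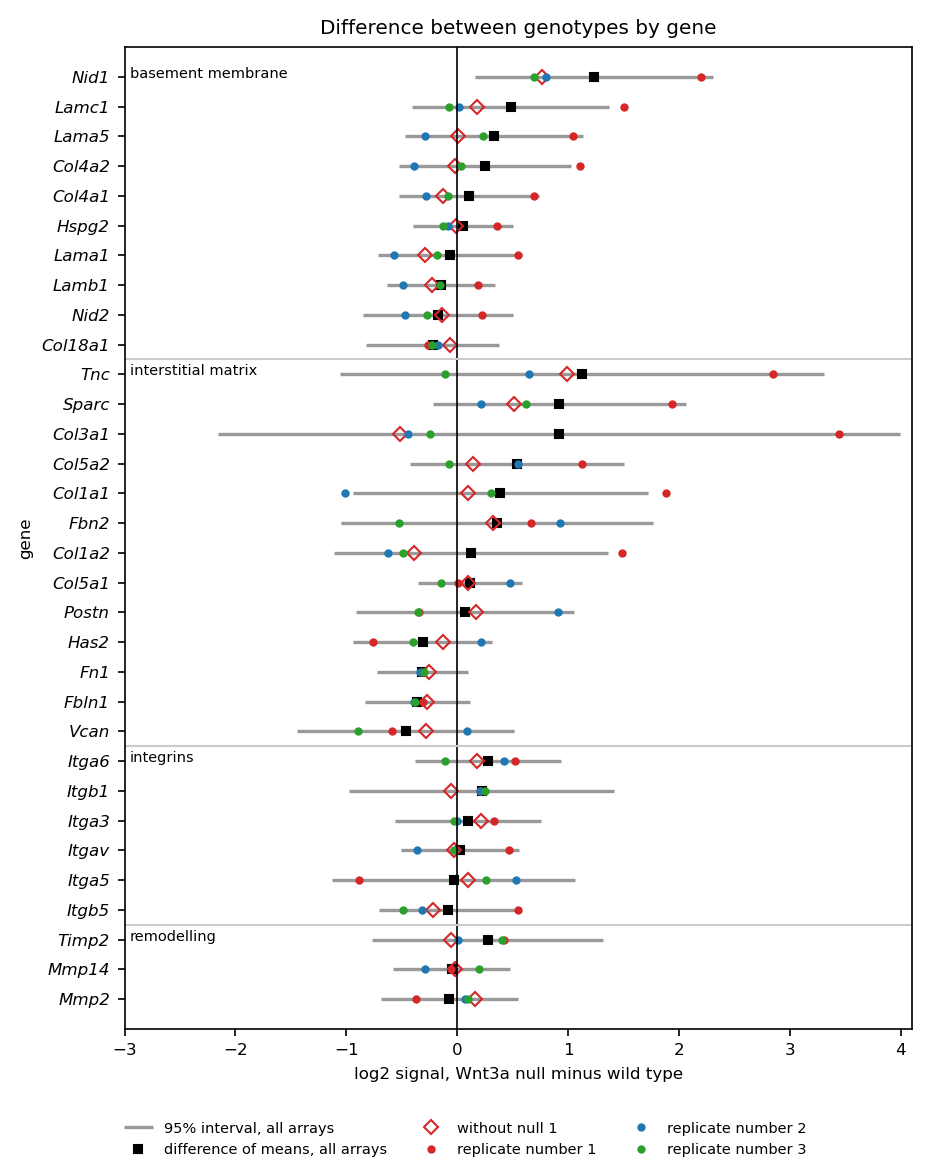
Log2 difference between null and wild type for each gene (x axis), with the mean difference and its 95% interval from limma, the difference within each replicate number, and the difference without null pool 1. The red points of replicate number 1 lie to the right for most basement membrane genes, whereas the 3 points of Fn1, Fbln1 and Itgb1 nearly coincide.

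At the probe sets used, fibronectin and fibulin 1 were the interstitial matrix genes whose groups did not overlap. Both had lower signals in null pools. Fn1, fibronectin, is the fibril on which mesoderm cells migrate. The null pools read 8561, 9671 and 9954, against 10593, 12241 and 12280 for wild type. All null pools lay below all wild-type pools. The log2 difference was -0.32 (SE 0.16, interval -0.73 to 0.09; limma, adjusted p = 0.990), and by replicate number it was -0.31, -0.34 and -0.30. Fbln1, which binds fibronectin and basement membrane proteins, had 1224, 1488 and 1457 against 1513, 1951 and 1902. The difference was -0.36 (SE 0.19, interval -0.83 to 0.11; limma, adjusted p = 0.990), and -0.31, -0.39 and -0.38 by number. Null pool 1 was the lowest array of both genes, and without it the differences were -0.25 and -0.27 with the groups still apart. In the fit with the block, trend and robust options adjusted p was 0.215 for Fn1 and 0.349 for Fbln1. Groups lay apart with null lower for 4.56% of all genes.

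Fibrillar collagens, which give interstitial matrix its tensile strength, had null pool 1 as their highest array in 4 of 5 genes. Col3a1 had 1937, 103 and 94.4 in null and 179, 139 and 112 in wild-type pools. Its log2 difference of 0.92 (interval -2.16 to 3.995) rests on that single pool and turned to -0.51 without it. Col1a2, a chain of collagen I, had 1068, 398 and 334 against 382, 613 and 468, with a difference of 0.12 that turned to -0.39. Col1a1, the partner chain, was dim, at 51.8 to 125 over the null pools and 34.0 to 105 over the others, with a difference of 0.39 that was 0.098 without null pool 1. Col5a2 had 916, 449 and 365 against 419, 306 and 384, a difference of 0.54 (interval -0.43 to 1.5) that was 0.14 without null pool 1. Its second bright probe set read 414, 197 and 235 against 160, 100 and 169, with every null pool above every wild-type pool, null pool 1 set aside or not, and a difference of 0.94 (limma over all probe sets, adjusted p = 0.991). Col5a1, the other chain of collagen V, did not show this pool, with a range of 305 to 424 over the 6 arrays and a difference of 0.11, or 0.099 without null pool 1.

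Sparc, a calcium-binding glycoprotein that binds collagens, was higher in null at every replicate number at the probe set used, without passing the test. The null pools read 3349, 1676 and 1210, against 877, 1447 and 787 for wild type. The groups overlapped, since wild-type pool 2 lay above null pool 3, and null pool 1 was the highest array. The log2 difference was 0.92 (SE 0.46, interval -0.21 to 2.06; limma, adjusted p = 0.983), at 1.93, 0.21 and 0.62 by number, and 0.51 without null pool 1. Sparc lies on chromosome 11 as Wnt3a does, 41 measured genes away of 1443 on that chromosome, so alleles linked to the Wnt3a locus in this mixed background and the genotype cannot be told apart for it. The other members on chromosome 11, Col1a1, Itga3 and Timp2, were 518 or more measured genes away.

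Has2 and Vcan had lower means in null pools, by values that did not pass the test. Has2, the enzyme that makes hyaluronan in the early embryo, had 331, 501 and 471 against 560, 431 and 620, a difference of -0.31 (interval -0.94 to 0.31) that was -0.13 without null pool 1. Its second bright probe set had 0.094. Vcan, versican, the large proteoglycan that binds hyaluronan, had 1229, 1632 and 1978 against 1848, 1538 and 3671, a difference of -0.47 (interval -1.44 to 0.51) that was -0.28 without null pool 1. Wild-type pool 3 was the highest array and null pool 1 the lowest for both, and replicate number 2 went the other way for both, at 0.22 and 0.09. Fbn2, a microfibril protein, varied more within wild type (466, 291 and 1241) than between genotypes, with 740, 553 and 864 in null and a difference of 0.36 (0.32 without null pool 1). Tnc and Postn, glycoproteins of the matricellular class, were dim, at 4.30 to 47.5 and 51.3 to 136 over all arrays, and their differences of 1.13 and 0.07 had intervals from -1.05 to 3.31 and from -0.91 to 1.05. They were 0.99 and 0.17 without null pool 1. The median over the 13 interstitial genes was 0.12, at 0.67, 0.21 and -0.30 by replicate number, with 8, 8 and 2 of 13 higher. Without null pool 1 it was 0.098, and 7 of 13 genes were higher in place of 9.

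**Figure D4:**
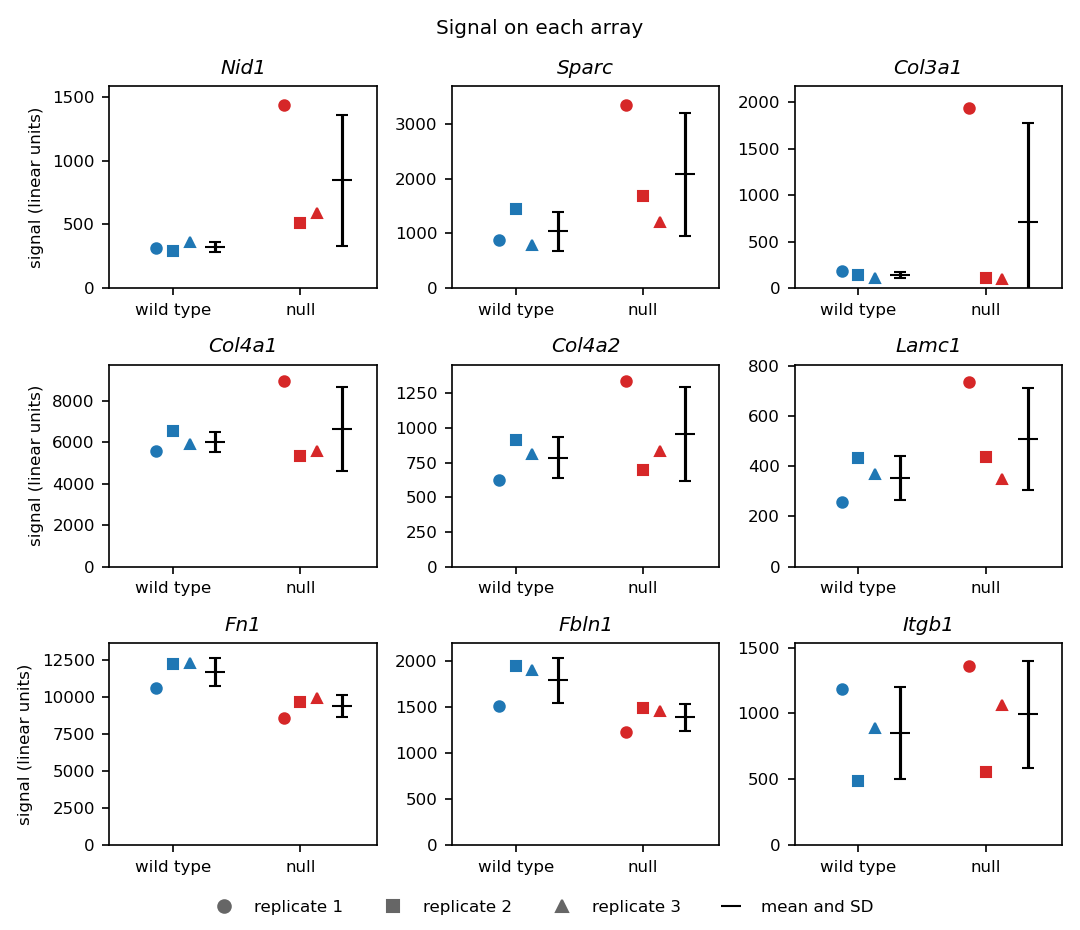
Linear signal of 9 genes on each array, by genotype, with the marker shape giving the replicate number and black bars the mean and SD of 3 arrays; the lower end of the null bar of Col3a1 falls below 0 and is not drawn. Nid1 is higher in all null pools, and Fn1 and Fbln1 are lower in all null pools. The Col3a1, Col4a1, Col4a2 and Lamc1 excess lies in null pool 1 at the probe sets shown.

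No integrin subunit separated the genotypes. Itgb1, the beta subunit shared by most matrix receptors, had 1362, 559 and 1062 in null and 1183, 485 and 891 in wild-type pools. Pools of number 2 were low and pools of number 1 high in both genotypes, so the pairs differed alike, by 0.20, 0.21 and 0.25, while the unpaired interval was wide (mean 0.22, interval -0.97 to 1.42; limma, adjusted p = 1.00). With the block its adjusted p was 0.808 (limma), and without null pool 1 the unpaired difference turned to -0.053. Other bright Itgb1 probe sets had 0.11 and -0.37, the latter lower in null in each pair (-0.18, -0.34 and -0.60), so the alike pairs belong to 1 probe set. Itga6, an alpha subunit of laminin receptors, had 1497, 1104 and 1313 against 1042, 822 and 1420, a difference of 0.28 (interval -0.38 to 0.94), or 0.17 without null pool 1. Itga3, another laminin receptor subunit, had a difference of 0.10 over a range of 190 to 317, or 0.22 without null pool 1. Itgav and Itgb5, which pair as a receptor for vitronectin, had differences of 0.02 (interval -0.51 to 0.56) and -0.09 (interval -0.70 to 0.53), and -0.032 and -0.22 without null pool 1. Itga5, the alpha subunit of the fibronectin receptor, had signals of only 43.9 to 74.5 over null and 30.5 to 81.2 over wild-type pools, below the median gene signal, and a difference of -0.033 (interval -1.13 to 1.07) that turned to 0.094 without null pool 1. Over the 6 subunits the median was 0.06, at 0.40, 0.10 and -0.03 by number, and 0.031 without null pool 1.

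Remodelling genes did not separate either at the probe sets used. Timp2, an inhibitor of matrix metalloproteases, had 971, 391 and 611 against 725, 390 and 462, a difference of 0.28 (interval -0.76 to 1.32) that was -0.05 without null pool 1. Its pools of number 1 were the highest in each genotype. Mmp2, a protease that degrades type IV collagen, had a difference of -0.07 (interval -0.69 to 0.55), and 0.16 without null pool 1. Mmp14, the membrane protease that activates it, had -0.05 (interval -0.58 to 0.48), and -0.023 without null pool 1. Its other bright probe set had 0.22. A dim Mmp14 probe set, at 28.8 to 95.8 over all arrays, had -1.23. There all null pools lay below all wild-type pools (limma over all probe sets, adjusted p = 0.640).

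The 32 genes had 91 probe sets, which test the same RNA at other places. In 20 genes more than 1 probe set lay at or above the median of all probe sets (71.5), and in 14 of these the bright probe sets had 1 sign. Sparc had 3 such probe sets, at 0.92, 1.00 and 0.63, and Fbln1 had 3, at -0.36, -0.44 and -0.13. The second Fn1 probe set, at signals of 168 to 354, had a mean difference of -0.33, close to the bright one, with its groups overlapping. By replicate number it had 0.16, -0.59 and -0.55. Col4a1 had 0.81 at a probe set with signals of 352 to 1572, against 0.11 at the brightest. At that second probe set null was higher in each pair, by 2.16, 0.22 and 0.05, with the groups overlapping. Its next highest array after null pool 1 was null pool 2, at 949. So the size and the signs by pair differed between places in that transcript. Nid1 had only 1 bright probe set. Its dimmer ones had 1.67 at signals of 9.45 to 109 and -2.16 at 1.79 to 53.6. Bright probe sets disagreed in sign for Lamb1, Fbn2, Has2, Itgb1, Itgb5 and Mmp14, whose differences were small or widely spread.

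**Figure D5:**
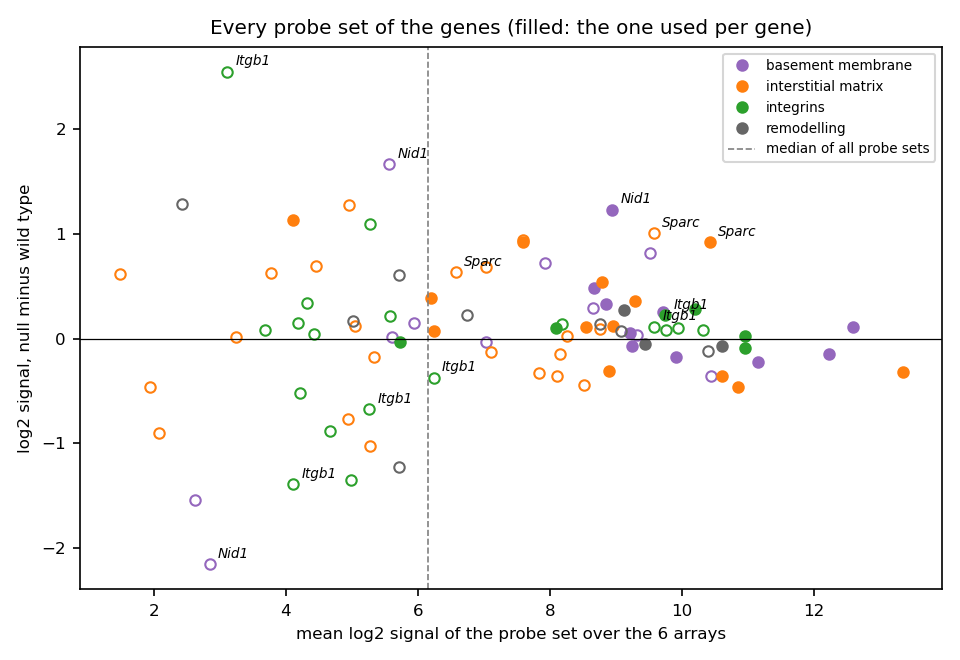
Log2 difference between null and wild type (y axis) against the mean log2 signal (x axis) for all 91 probe sets of the 32 genes, coloured by role, filled for the probe set used per gene, with Nid1, Sparc and Itgb1 named. Differences spread widely to the left of the dashed line, the median of all probe sets, and the 3 Sparc probe sets lie above 0.

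Further matrix and adhesion genes were read from a list of 100, of which 92 were measured. Groups did not overlap for 10 of the 92 (10.9%), near the 10.1% of all genes. Limma called 0 of the 92 after adjustment, and at an unadjusted p under 0.05 it passed 4 with higher means (3.02% of all genes) and 4 with lower means in null (2.14%). The higher ones included Has1, a second hyaluronan synthase, with 90.1, 128 and 109 in null and 30.5, 22.1 and 30.7 in wild-type pools. All of its null pools were above all wild-type pools, in dim signal throughout, with a log2 difference of 1.98 (limma, adjusted p = 0.249). Lox, which crosslinks collagen, had 2.56 (adjusted p = 0.962, limma) at signals of 4.49 to 110, and Adamts9, a secreted protease that cleaves versican, had 0.62 (adjusted p = 0.964, limma) at 354 to 843. These differences were 2.11 for Has1, 2.33 for Lox and 0.43 for Adamts9 without null pool 1.

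The lower ones in that list were Itga8, Frem2, Lamb3 and Col11a1. Itga8, an alpha subunit that binds nephronectin, had 166, 173 and 243 in null and 460, 373 and 327 in wild type. The difference was -1.01 on the log2 scale (limma, adjusted p = 0.740), all null pools lying below all wild-type pools. Frem2, a membrane protein that links basement membranes to the tissue beneath, had 1308, 1126 and 1454 against 2462, 1552 and 2234, a difference of -0.66 (limma, adjusted p = 0.950), again with the groups apart. Lamb3, a laminin chain of epidermis, had -1.06 at signals of 32.4 to 115. The differences were -0.90 for Itga8, -0.68 for Frem2 and -1.06 for Lamb3 without null pool 1. Among 19 measured basement membrane genes of the list the median was -0.50, with 12 lower and 7 higher, against 0.00 over all genes. Several of these genes were dim, below the median gene signal of 164, which limits this median. Over all arrays Lama2 read 8.62 to 69.6, Lamc3 7.58 to 101 and Col4a3 5.30 to 57.6. Among 29 interstitial genes it was 0.25, and here Efemp1 (2182 in null pool 1 against 420 to 582 elsewhere) and Dcn, also in the decidua list, followed null pool 1, with differences of 0.88 and 1.66 that were 0.23 and 0.017 without it. Medians were 0.04 for 12 further integrins, 0.07 for 10 integrin adaptors, where Parva, which joins integrins to actin, had 0.42 with the groups apart, 0.09 for 11 genes of collagen processing and 0.44 for 11 proteases and inhibitors. Without null pool 1 the medians were -0.39 for the basement membrane genes, 0.012 for the interstitial genes, -0.012 for the integrins, 0.13 for the adaptors, -0.11 for collagen processing and 0.32 for proteases and inhibitors.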

How the data were processed

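Each of the 6 arrays (Affymetrix Mouse Genome 430 2.0, per the labels' protocols) held RNA of 3 embryos, 30 to 50 ng each, amplified and pooled to 600 ng. The deposited table gives 1 linear intensity per probe set. RMA is named without a version, per the submitters' processing notes, but the values are linear and have the same mean (500, after trimming 2% at each end) on each array, which is not the form of RMA. Which step made them remains unknown here.

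Intensities were turned to log2, without a floor. Of 45101 probe sets 64 are controls, 34945 have 1 symbol, 932 several and 9160 are not listed. Genes were fitted in R 4.3.3 with limma 3.58.1 (lmFit, eBayes, two-sided, Benjamini-Hochberg over 18193 genes, threshold 0.05). Members and lists were chosen with earlier results of these data known. All members are accounted for. The rule for named genes gave in full the smallest p per role, up to 4 basement membrane, 5 interstitial, 3 integrin and 1 remodelling gene, any member called with the block, trend and robust options, and Fn1, Itga5, Itgb1, Col4a1, Col4a2, Lama1 and Lamc1 whatever their values. Of the related list it took up to 3 genes per role. The decidua list and the emphasis on Col3a1 and null pool 1 were chosen after their values were seen. Alternatives changed the block, variance prior, low signals, scaling, probe set and arrays.

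Deviations of same-numbered arrays correlated at 0.422, 0.454 and 0.282 in the 18088 probe sets whose mean log2 exceeds 7, and at 0.0727, 0.0537 and 0.0284 over all genes. The first figures exceed the bound of 0.1, so differences are also given by number, and fits with the number as a block were run as alternatives. The main fit leaves the number out. Intervals, SEs and adjusted p-values are therefore unpaired unless the block is named. No label tells what pools of 1 number have in common. With 3 arrays per group their number limits the precision.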

Additional observations from a re-analysis of the deposited data

How the results depend on the processing

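No alternative called a member, and the smallest adjusted p of any member over them was 0.215 (limma). Over all genes the count called was 0 except with trend and robust options (1), with these and the replicate block (11), and with these and the block without pair 1 (34, added after seeing the data). Leaving out single replicates called 0 genes and 0 members each time. In the main fit on all arrays 1 member passed at an unadjusted p under 0.05. The replicate block alone called 0 genes, 0 members and 0 probe sets, kept the role medians at 0.08 (basement membrane), 0.12 (interstitial) and 0.06 (integrins), and changed no call. Without single replicates those medians ran from -0.04 to 0.18, from 0.05 to 0.33 and from 0.03 to 0.15. With the block and without pair 1 they were -0.18, -0.09 and 0.07.

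Directions held under every alternative run for 11 members, Nid1, Fn1, Fbln1 and Sparc among them, and turned under at least 1 for 21, none of them called. The cause was not tested. With the block and without pair 1, with or without trend and robust options, the log2 differences that turned were Lama5 -0.028, Lamc1 -0.031, Col4a1 -0.19, Col4a2 -0.18, Hspg2 -0.10, Col1a1 -0.36, Col1a2 -0.56, Col3a1 -0.34, Itga3 -0.018, Itga5 0.39, Itgav -0.20 and Mmp2 0.081. With the mean of all probe sets they were Lama5 -0.31, Itga5 0.36, Itgav -0.53 and Itgb5 0.045. With arrays centred on the median, which moved the median of all genes by -0.05, they were Hspg2 -0.00081 and Itgav -0.031.

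Without single replicates the differences that turned ran from -0.29 to 0.13 for Lama1, -0.13 to 0.24 for Col4a1, -0.019 to 0.45 for Col4a2, -0.41 to 0.045 for Nid2, -0.036 to 0.13 for Hspg2, -0.067 to 0.74 for Col1a1, -0.39 to 0.44 for Col1a2, -0.51 to 1.67 for Col3a1, -0.0041 to 0.19 for Col5a1, -0.10 to 0.94 for Fbn2 and -0.33 to 0.37 for Postn. They ran from -0.13 to 0.23 for Itga3, -0.44 to 0.27 for Itga5, -0.14 to 0.15 for Itgav, -0.14 to 0.59 for Itgb1, -0.27 to 0.041 for Itgb5, -0.19 to 0.16 for Mmp2, -0.19 to 0.12 for Mmp14 and -0.054 to 0.60 for Timp2. Tnc, Postn, Col1a1 and Itga5 lie below the median gene signal, which limits their values.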
